A study of Mus musculus with 12 samples.

Results

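The joint effect of platelets and lipopolysaccharide (LPS) on mouse monocytes was measured in 3 libraries of cells given both exposures (PLT_LPS) against 3 libraries of untreated cells (NC), 6 of the 12 RNA sequencing libraries of the study. These 6 were chosen by their titles and treatment labels, and no measured value entered the choice. The other 6 libraries, 3 of cells given LPS alone (LPS) and 3 of cells kept with platelets alone (PLT), show what each exposure gave by itself. All cells were wild-type monocytes from the bone marrow of C57Bl6J mice, so no group carries a transgene or a deleted gene. PLT_LPS cells were held with platelets overnight and washed before LPS was added. The sources used here do not give the doses, the time with LPS, the source of the platelets or the age and sex of the mice. Whether replicate libraries represent separate mice or separate cultures is likewise not stated, so p-values reflect the spread among these libraries alone, and that spread may be technical.

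LPS, from the outer membrane of Gram-negative bacteria, is sensed by Toll-like receptor 4. The receptor signals through an NF-kB branch that switches on inflammatory cytokines and through an interferon branch, in which secreted interferon beta then switches on the interferon-stimulated genes. Platelets bind monocytes and pass lipids, RNA and granule proteins to them, and monocytes balance cholesterol through the SREBP2 factor, which drives synthesis and uptake, and the liver X receptor (LXR), which drives export.

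The deposited counts summed to 26844499 to 31119054 per PLT_LPS library and to 24520148 to 26090209 per NC library. Over all 12 libraries the totals were 20060867 to 32155727, so that 3 counts were worth 0.0854 to 0.1635 CPM (counts per 1e6 counts, on the scaled library size). These limits cover counting error only. The first principal component held 77.9% of the variance, and PLT_LPS libraries scored 78.5 to 83 on it, against −84.6 to −83.1 for NC libraries. PLT replicate 1 stood apart, with 0.886% of counts from mitochondrial genes, where the remaining libraries had 0.431 to 0.600%, and its description reads "Control" although its title and treatment name platelets. It enters no mean of the joint comparison, but it does enter the shared estimate of the spread. Of 15 listed mitochondrial transcripts, mt-Nd4l, mt-Co2, mt-Co3, mt-Atp6 and mt-Atp8 had 0 counts in all 12 libraries. The mitochondrial percentages therefore lack them. The 14 monocyte and macrophage markers, none of them at 0, summed to 46424 to 49332 CPM in PLT_LPS libraries and to 37294 to 41335 CPM in NC libraries. In bulk samples, fewer cells of a type and less RNA per cell cannot be told apart.

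The joint exposure changed 48.2% of the genes tested. Of 13151 genes tested with edgeR's quasi-likelihood test and Benjamini-Hochberg adjustment, 3513 were higher in PLT_LPS cells (26.7%) and 2832 were lower (21.5%) at an adjusted p under 0.05. At least 2-fold changes were called for 1817 higher genes (13.8%) and 1210 lower genes (9.2%). The large changes were mostly rises: 762 genes were at least 8-fold higher and 142 at least 8-fold lower, and 295 were at least 64-fold higher. The split depends on the scaling, since the median log2 change of all genes was 0.03 with trimmed means (TMM), −0.17 with upper-quartile factors and −0.35 with library size alone. The last 2 scalings called 2601 higher and 4242 lower, and 2150 higher and 5926 lower.

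Each exposure alone was set beside the joint effect. These 2 comparisons use the same NC libraries as the joint one. LPS alone raised 3640 genes (27.7%) and lowered 3021 (23%), and over all genes the median absolute log2 change was 0.43 for the joint effect, 0.47 for LPS alone and 0.19 for platelets alone. Platelets alone raised 478 genes (3.63%) and lowered 376 (2.86%), counts that fell to 279 and 160 without NC replicate 1 and to 261 and 149 without NC replicate 2, while 203 were lower without PLT replicate 2. PLT_LPS against LPS, the change that platelets made in cells that also received LPS, gave 580 higher genes (4.41%) and 377 lower (2.87%). Those counts were 386 and 211 without PLT_LPS replicate 1 and 372 and 185 without PLT_LPS replicate 2. The lower count alone moved to 237 without LPS replicate 1, 229 without LPS replicate 3 and 777 without PLT replicate 1. PLT_LPS against PLT gave 3627 higher (27.6%) and 2871 lower (21.8%). With upper-quartile factors that split was 2536 and 4623, and with library size alone it was 2194 and 5749; LPS alone gave 2650 and 4350, and 2133 and 5975, under the same 2 scalings.

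**Figure D1:**
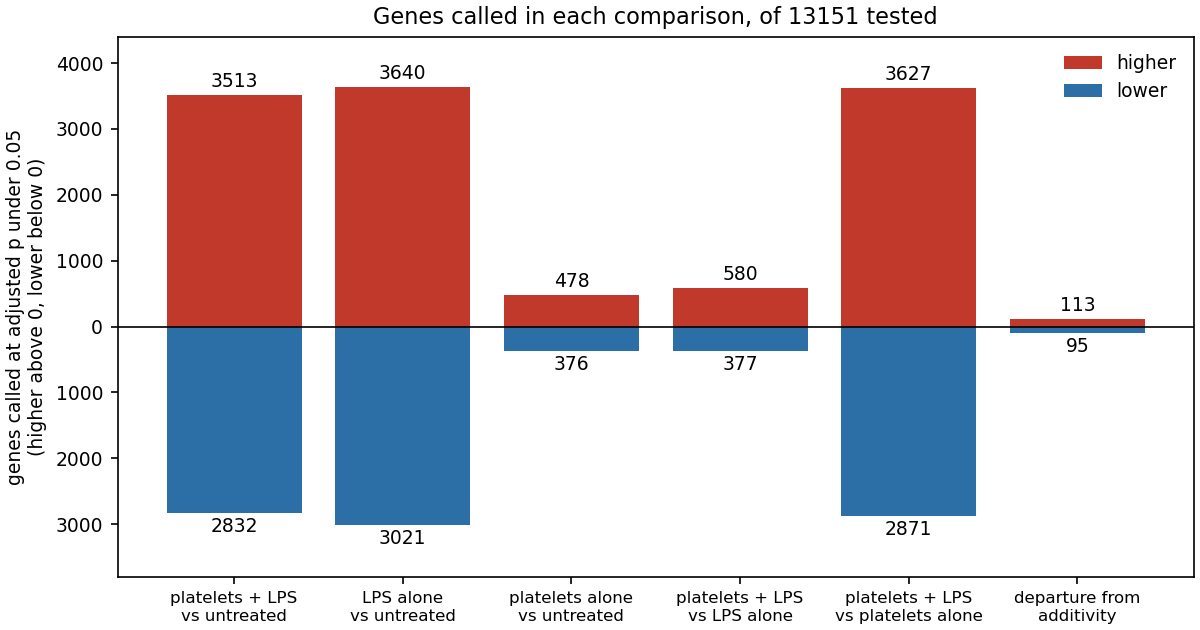
Number of genes (y axis) called higher (bars above 0) and lower (bars below 0) in each of 6 comparisons (x axis) at an adjusted p under 0.05, of all genes tested. The joint effect has 3513 higher and 2832 lower genes, close in size to LPS alone (3640 and 3021), while platelets alone have 478 and 376 and the departure from additivity 113 and 95.

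Interferon-stimulated genes rose as a group. All 51 tested members of the list were higher in PLT_LPS cells and 0 lower (0 lower also by DESeq2, by limma-voom and at a raw (unadjusted) p under 0.05). Their median log2 change was 6.29, against 0.03 for all genes tested. LPS alone also called 51 higher and 0 lower, with a median of 5.84. Platelets alone called 11 higher and 1 lower, with a median of 0.27. The 1 lower call was lost by limma-voom and without PLT_LPS replicate 1. The 11 became 6 without NC replicate 2, 19 without PLT replicate 1, 17 by DESeq2 and 5 by limma-voom. The list includes Rsad2, which makes a chain-terminating nucleotide against viral polymerases, and Ifit1, which binds viral RNA. Their upstream sequences are shown with that of Cxcl10, a chemokine for T cells, because all 3 hold motifs of the factors that act downstream of Toll-like receptor 4. Promoters were taken by the smallest joint p-values in the interferon, cytokine and cholesterol lists, among members with a promoter available for use. The enzyme gene Sqle of the cholesterol list had none. Those of another cytokine gene and of the sterol enzyme Msmo1 held no match to any motif searched and are not shown. Each run is the 250 bases before the annotated start, from RefSeq on build GRCm38.p6, read 5′ to 3′ along the strand of the gene. Capitals mark matches, on either strand, to the interferon response element core GAAANNGAA and, in Cxcl10, also to the NF-kB site core GGANNTTCC. Positions count the annotated start as 0.
Rsad2, chr12:26456453-26456702, minus strand: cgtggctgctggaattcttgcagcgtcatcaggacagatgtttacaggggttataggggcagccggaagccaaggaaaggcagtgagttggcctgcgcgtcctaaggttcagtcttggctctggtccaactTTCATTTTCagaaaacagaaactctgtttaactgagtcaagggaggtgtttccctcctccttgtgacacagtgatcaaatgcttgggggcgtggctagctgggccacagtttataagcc
Ifit1, chr19:34640639-34640888, plus strand: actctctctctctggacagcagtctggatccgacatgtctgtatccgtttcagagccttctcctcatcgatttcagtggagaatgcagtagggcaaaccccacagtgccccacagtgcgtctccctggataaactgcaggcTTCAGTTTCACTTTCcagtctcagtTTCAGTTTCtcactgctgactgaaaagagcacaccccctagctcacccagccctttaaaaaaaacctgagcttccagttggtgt
Cxcl10, chr5:92348890-92349139, minus strand: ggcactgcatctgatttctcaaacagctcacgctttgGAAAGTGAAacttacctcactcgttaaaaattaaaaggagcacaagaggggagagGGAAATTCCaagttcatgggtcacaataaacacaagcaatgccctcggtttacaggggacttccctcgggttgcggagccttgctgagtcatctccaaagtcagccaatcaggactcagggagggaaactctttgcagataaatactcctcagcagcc

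The Rsad2 match lies at −119 to −111 from the annotated start. The Ifit1 sequence holds 3 interferon matches, of which the pair at −109 to −101 and −103 to −95 overlap and the other lies at −84 to −76. In Cxcl10 the interferon core lies at −213 to −205 and the kB core at −158 to −150. Within 300-base windows around the start, the interferon core was found in 26 of 39 promoters of the interferon list (66.7%), against 741 of 9788 promoters of tested genes (7.57%). The kB core was found in 10 of 25 promoters of the cytokine list (40%), against 459 of 9788 (4.69%). A sterol element, TCACCCCAC, was also searched and found in 1 of 17 promoters of the cholesterol list (5.88%), against 49 of 9788 (0.501%). A match is a description of the letters, and binding was not measured.

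Rsad2 had 4445, 4465 and 5411 CPM in PLT_LPS libraries and 3354, 3299.7 and 3182 CPM in LPS libraries. It had 0.739, 0.907 and 0.8255 CPM in PLT libraries and 0.736, 0.596 and 0.612 CPM in NC libraries. The groups with LPS lay far above those without, and every PLT_LPS library lay above every LPS library. The joint fold was 7316 (log2 12.84, SE 0.14, adjusted p = 6.09e-18), and the step from LPS alone to both was 1.46-fold (log2 0.54, SE 0.08, adjusted p = 0.000597). Gbp5 and Iigp1, GTPases that attack intracellular pathogens, had 0 counts in every NC library and were at least 2705-fold and at least 312-fold higher in PLT_LPS cells, taking 3 counts per NC library as the floor. Ifit1bl1, a gene of the Ifit family, was at least 358-fold higher.

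Some interferon-stimulated genes were also higher with both exposures than with LPS alone. PLT_LPS against LPS called 14 of 51 higher and 0 lower, with a median log2 change of 0.33 against 0.01 for all genes. The number higher was 22 by DESeq2 and 23 by limma-voom. It was 4 to 6 without any single PLT_LPS or LPS library and 26 without PLT replicate 1; no such setting, nor a raw p under 0.05, called any lower. Iigp1 was among them, with 29.9, 27.4 and 40.3 CPM in PLT_LPS libraries against 18.2, 18.5 and 19 CPM in LPS libraries (log2 0.81, SE 0.16, adjusted p = 0.00899). Ifnb1, interferon beta itself (chosen after its values were seen), had 2.98, 5.525 and 4.58 CPM in PLT_LPS libraries and 5.9, 5.24 and 5.67 CPM in LPS libraries, with 0 counts in all PLT and NC libraries. The PLT_LPS and LPS libraries of Ifnb1 overlapped (log2 −0.36, adjusted p = 0.542).

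Cytokine and chemokine genes rose almost as widely. Of 39 tested, 36 were higher and 1 lower in PLT_LPS cells, with a median log2 change of 6.28, or 5.58 when the 8 members with a group at 0 counts are set to their bounds. LPS alone called 35 higher and 3 lower, and platelets alone 6 and 5. The lower member was the chemokine Ccl6 (log2 −0.60, adjusted p = 3.17e-05, named after its values were seen). Ccl5, a chemokine for T cells and monocytes, showed the largest fitted rise of all named genes (log2 16.10, SE 0.32, adjusted p = 2.28e-15). It had 4848, 5376 and 5348 CPM in PLT_LPS libraries and 0.1753, 0.03507 and 0 CPM in NC libraries. Its NC mean lay under the level of 3 counts per library, so the size and rank of this rise are uncertain. Il12b, the shared subunit of interleukins 12 and 23, had no counts in NC libraries and was at least 1375-fold higher. Il6, which drives fever and the acute-phase response, averaged 104.7 ± 15.0 CPM in PLT_LPS cells and had 1 count in all NC libraries together (ratio 9045.5, 95% counting interval 1624 to 357280).

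Tnf, the early inflammatory cytokine, had 1412, 1476 and 1555 CPM in PLT_LPS libraries and 1521, 1464 and 1365 CPM in LPS libraries. It had 22.6, 28.2 and 28.3 CPM in PLT libraries and 30.1, 31.2 and 31.5 CPM in NC libraries. The PLT_LPS and LPS libraries were interleaved, and both lay above all others. Tnf rose 47.9-fold with both exposures (log2 5.58, SE 0.11, adjusted p = 1.5e-15), beside 46.9-fold with LPS alone, and PLT_LPS against LPS did not pass the test (log2 0.03, SE 0.09, adjusted p = 0.896). Il1b, which drives fever and leukocyte recruitment, rose 714.5-fold (log2 9.48, SE 0.32, adjusted p = 5.05e-13), beside 1053-fold with LPS alone.

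Several chemokines differed between both exposures and LPS alone. The monocyte attractant Ccl2 had 1492, 1643 and 1749 CPM in PLT_LPS libraries and 637.5, 624.5 and 536.7 CPM in LPS libraries. It had 1636, 1345 and 1279.7 CPM in PLT libraries and 1324, 1316 and 1507 CPM in NC libraries. LPS libraries were the lowest, with no overlap with any other group, while PLT_LPS, PLT and NC libraries overlapped. PLT_LPS against LPS gave 2.71-fold higher Ccl2 (log2 1.44, SE 0.10, adjusted p = 2.92e-07), whereas the joint effect did not pass the test (log2 0.24, SE 0.10, adjusted p = 0.0695). The joint call of Ccl2 depends on the setting. It passed with the 2 compared groups only (adjusted p = 0.0134) and without PLT_LPS replicate 1, PLT replicate 1 or NC replicate 3 (adjusted p = 0.0497, 0.0263 and 0.0418), and turned to log2 −0.15 with library size alone. Ccl7, a related monocyte attractant chosen after its values were seen, was likewise higher in PLT_LPS than in LPS cells (1634 ± 128 CPM against 541.7 ± 54.3 CPM, log2 1.59, adjusted p = 4.15e-07). In the other direction, the neutrophil attractant Cxcl5 had 66.8, 71.0 and 69.1 CPM in PLT_LPS libraries, against 330.8, 267.7 and 288.4 CPM in LPS libraries (log2 −2.10, SE 0.12, adjusted p = 2.44e-08). Over the list, PLT_LPS against LPS called 6 members higher and 8 lower, with 3 higher and 5 lower without LPS replicate 1 or LPS replicate 2, and 5 lower without PLT_LPS replicate 1 or PLT_LPS replicate 2.

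**Figure D2:**
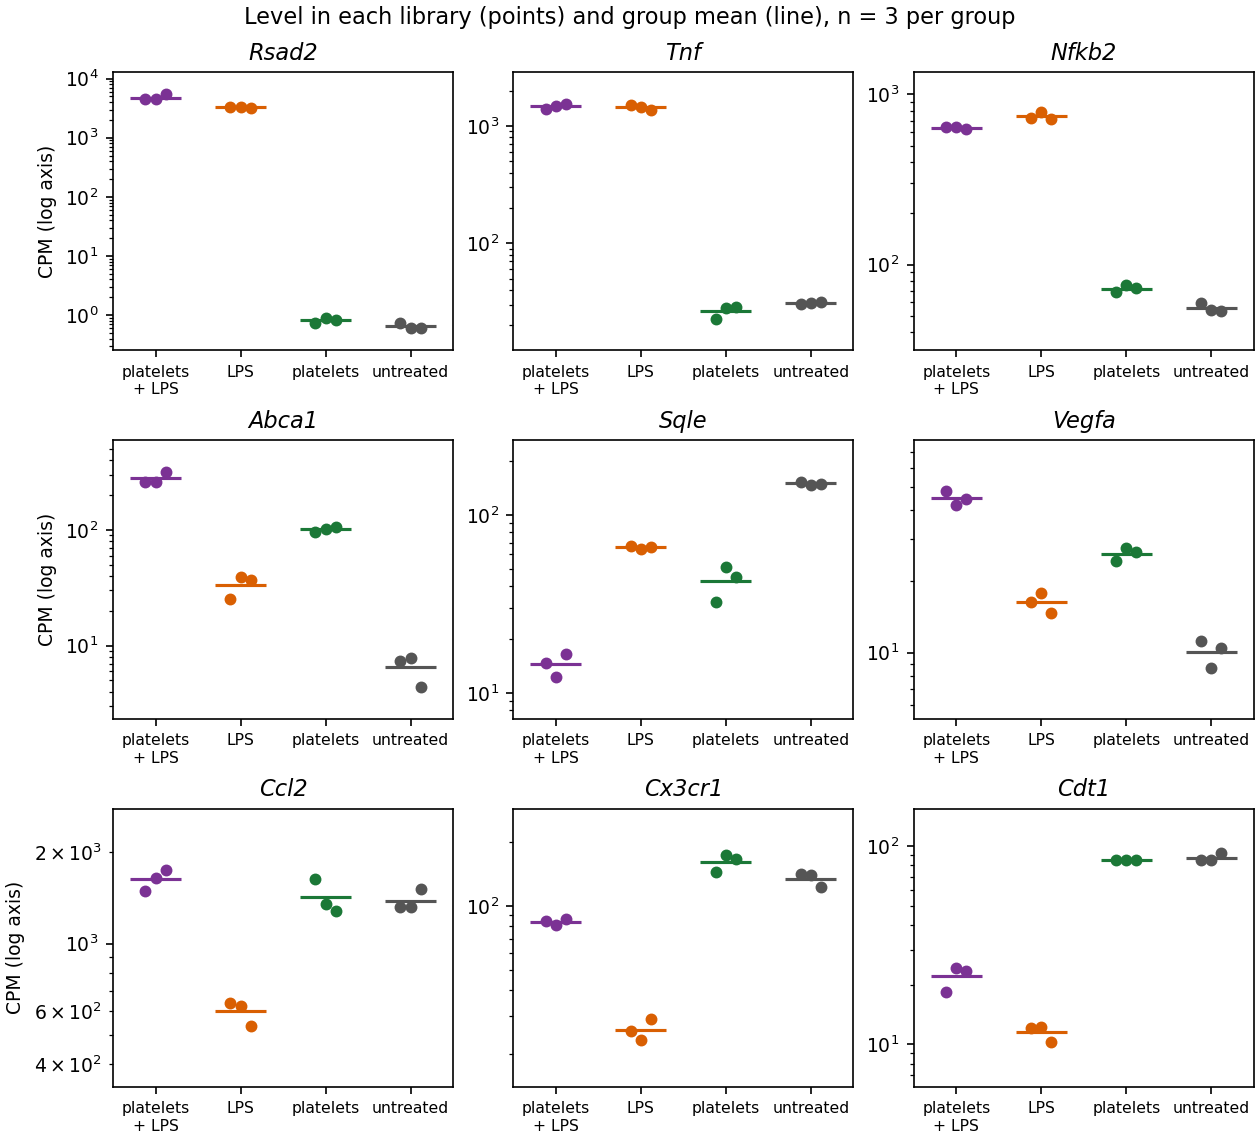
CPM (y axis, log scale) of 9 named genes in PLT_LPS, LPS, PLT and NC cells, from left to right. Points are the 3 libraries of a group and lines their mean; the spread of the points is the error. Rsad2, Tnf and Nfkb2 are high in both groups with LPS, Abca1 and Vegfa are highest in PLT_LPS, Sqle is lowest in PLT_LPS, and Ccl2, Cx3cr1 and Cdt1 are lowest in LPS.

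Inflammatory effectors followed, with 27 of 32 tested members higher and 2 lower (median log2 4.63), beside 28 and 3 for LPS alone and 7 and 3 for platelets alone. Nos2, which makes nitric oxide, had 226.9, 215 and 273.9 CPM in PLT_LPS libraries, 94.5, 105 and 135.4 CPM in LPS libraries, 0, 0 and 0.171 CPM in PLT libraries and 0 counts in NC libraries. All PLT_LPS libraries lay above all LPS libraries. Nos2 was at least 2291-fold higher than in NC cells with both exposures and at least 1072-fold higher with LPS alone, and PLT_LPS against LPS gave log2 1.10 (SE 0.18, adjusted p = 0.00166). Ptgs2, the inducible cyclooxygenase (chosen after its values were seen), went the other way in that comparison, at 120.3, 89.7 and 119.8 CPM in PLT_LPS libraries against 254.3, 253.7 and 279.1 CPM in LPS libraries (log2 −1.25, adjusted p = 0.00831). The protease Adamts4 was at least 413-fold higher in PLT_LPS than in NC cells, and Shisa3, a membrane protein gene, at least 1857-fold higher. Adamts4 was lower with both exposures than with LPS alone (log2 −0.89, adjusted p = 0.00078). For Shisa3 that comparison gave log2 −0.40 (adjusted p = 0.0202), a call lost without PLT_LPS replicate 1 or PLT_LPS replicate 2 or any one LPS library (adjusted p = 0.054 to 0.111).

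Feedback inhibitors rose too, with 25 of 27 higher and 1 lower (median log2 2.85), beside 24 and 1 for LPS alone. Socs3, which blocks cytokine receptor signalling, averaged 585.1 ± 22.8 CPM in PLT_LPS cells and 1.80 ± 0.201 CPM in NC cells, a 325-fold rise (log2 8.35, SE 0.12, adjusted p = 7.5e-17). Il10, the anti-inflammatory cytokine, had 17.4, 15.6 and 16.6 CPM in PLT_LPS libraries, 14.3, 12.6 and 13.5 CPM in LPS libraries, 1.58, 1.25 and 1.31 CPM in PLT libraries and 3.65, 4.03 and 3.78 CPM in NC libraries. PLT_LPS libraries lay above all others and PLT libraries below. With both exposures Il10 rose 4.32-fold (log2 2.11, SE 0.14, adjusted p = 2.37e-09), while alone they moved it in opposite directions (log2 1.82 for LPS and −1.47 for platelets).

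Receptors of bacterial and viral products, listed with their signalling adaptors, were mostly higher. Of 36 genes, 25 were up and 5 down (median log2 1.45), beside 26 and 5 for LPS alone. Library size alone made 8 lower in the joint effect, and without PLT replicate 1 LPS alone had 8 lower. Tlr2, the receptor of bacterial lipopeptides, averaged 2043 ± 26.6 CPM in PLT_LPS cells and 95.5 ± 9.62 CPM in NC cells (log2 4.42, SE 0.10, adjusted p = 1.09e-14). Nfkb2, a subunit gene of NF-kB, had 645.8, 639.8 and 630.6 CPM in PLT_LPS libraries and 59.5, 54 and 53.6 CPM in NC libraries (log2 3.52, SE 0.08, adjusted p = 1.07e-14). Tlr4, the LPS receptor itself, fell 3.84-fold, with 16.0, 12.8 and 14.5 CPM in PLT_LPS libraries and 65.3, 52.6 and 48.5 CPM in NC libraries (log2 −1.94, SE 0.19, adjusted p = 2.67e-07). LPS alone gave Tlr4 a log2 change of −1.84 and platelets alone −0.17. The other 4 lower members, named after their values were seen, were Tlr5, the flagellin receptor, Tlr13, a receptor of bacterial RNA, Sting1, which relays cytosolic DNA sensing, and the kinase gene Irak1 (log2 −5.24, −1.79, −0.88 and −0.24).

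Antigen presentation genes of both classes were higher. For MHC class I and its peptide supply, 21 of 22 genes were higher and 0 lower (median log2 2.35; 0 lower also by DESeq2, by limma-voom and at a raw p, 1 lower with library size alone), as with LPS alone (21 and 0, with 1 lower at a raw p and by DESeq2, 0 by limma-voom), while platelets alone raised 7, or 3 without PLT replicate 2, NC replicate 1 or NC replicate 2. Tap1, which pumps peptides for loading, had a joint log2 change of 4.40. For MHC class II and its partners, 12 of 15 were higher and 1 lower (median log2 1.59), beside 10 and 1 for LPS alone (2 lower without PLT replicate 1) and 8 and 0 for platelets alone (5 higher without NC replicate 1). Platelets alone had 0 lower also by DESeq2, by limma-voom and at a raw p under 0.05. The lower call, H2-DMa, a peptide-loading helper named after its values were seen, was lost without any one of the 3 PLT_LPS libraries and without NC replicate 2, NC replicate 3, LPS replicate 1 or PLT replicate 2. H2-Ab1, which encodes an MHC class II beta chain, had 181.9, 188.5 and 166.9 CPM in PLT_LPS libraries, 132.7, 125.9 and 142.1 CPM in LPS libraries, 143, 117.2 and 101.6 CPM in PLT libraries and 47.55, 58.4 and 56 CPM in NC libraries. PLT_LPS libraries lay above all others. The joint rise was 3.32-fold (log2 1.73, SE 0.12, adjusted p = 5.28e-09), beside log2 1.31 for LPS alone and 1.16 for platelets alone.

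Among the largest falls were surface receptors and enzymes. Gcnt1, which branches the sugar chains of surface proteins, had 1.89, 2.44 and 4.62 CPM in PLT_LPS libraries and 174.7, 147.2 and 130.1 CPM in NC libraries, a 50.5-fold fall (log2 −5.66, SE 0.29, adjusted p = 9.69e-11). C5ar2, a receptor of complement fragment C5a, Cnr2, a cannabinoid receptor, and Plau, the urokinase protease, fell as well (log2 −5.32, −5.24 and −5.04). Thbd, the anticoagulant thrombomodulin, fell 19.1-fold (log2 −4.26, SE 0.15, adjusted p = 9.58e-13), and the transporter Slco2b1, the actin regulator Eps8, the clathrin adaptor Hip1, the lipase inhibitor Angptl4 and the ETS factor Etv5 had log2 changes of −4.61, −4.47, −4.21, −4.20 and −4.18. For all 10, the PLT_LPS and NC libraries did not overlap, as the naming rule required, which held for 60.4% of all genes. LPS alone gave these 10 genes log2 changes of −5.92 (Angptl4) to −3.70 (Thbd), and platelets alone −0.90 (Slco2b1) to 0.19 (Eps8).

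Cholesterol synthesis and uptake genes were lower almost throughout. Of 24 tested members, 23 were lower and 0 higher (0 also by DESeq2, by limma-voom and at a raw p under 0.05). Their median log2 change was −1.47. The remaining member, Ebp, a sterol isomerase named after its values were seen, had log2 −0.18 (adjusted p = 0.165). Platelets alone lowered 19 (median −1.28) and raised 0 by any of these tests, and LPS alone lowered 6 and raised 5 (median −0.13). For LPS alone that split depends on the scaling, with 12 lower and 3 higher under upper-quartile factors and 16 and 1 under library size alone. PLT_LPS against LPS called 18 lower and 0 higher, again 0 by each of the other tests, with a median of −1.42. With any single library left out the joint comparison called 23 or 24 lower and PLT_LPS against LPS 17 to 21.

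Sqle, a rate-limiting enzyme of sterol synthesis, had 14.7, 12.2 and 16.6 CPM in PLT_LPS libraries, 66.8, 64.4 and 66.1 CPM in LPS libraries, 32.2, 50.7 and 44.9 CPM in PLT libraries and 154.3, 148 and 149.9 CPM in NC libraries. The 4 groups did not overlap, with PLT_LPS lowest and NC highest. The joint fall was 10.4-fold (log2 −3.38, SE 0.15, adjusted p = 1.81e-11), beside log2 −1.20 for LPS alone and −1.82 for platelets alone. The other enzymes Cyp51, Msmo1, Idi1 and Sc5d and the sterol carrier Stard4 had joint log2 changes of −2.40, −2.19, −2.09, −1.62 and −2.17, and −1.86 to −2.30 in PLT_LPS against LPS.

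Both main cholesterol exporters rose. Abca1, which exports cholesterol to lipoproteins, had 260.0, 259.4 and 319.1 CPM in PLT_LPS libraries, 25.5, 39 and 36.6 CPM in LPS libraries, 96.2, 102.2 and 106 CPM in PLT libraries and 7.33, 7.75 and 4.35 CPM in NC libraries. The 4 groups did not overlap, with PLT_LPS highest. The joint rise was 43.2-fold (log2 5.43, SE 0.21, adjusted p = 3.07e-12), beside log2 2.38 for LPS alone and 3.97 for platelets alone. Abcg1, its partner in export, averaged 59.6 ± 4.64 CPM in PLT_LPS cells and 0.618 ± 0.402 CPM in NC cells, a 96.4-fold rise (log2 6.59, SE 0.28, adjusted p = 9.37e-12), beside log2 1.93 and 4.69 for LPS and platelets alone. Nr1h3, which encodes LXR alpha, had a joint log2 change of 3.36. Of 19 LXR targets and efflux genes, 10 were higher and 5 lower (median log2 0.53), beside 9 and 6 for LPS alone and 10 and 0 for platelets alone, with 0 lower by each of the other tests. PLT_LPS against LPS called 8 higher and 0 lower, with 2 lower at a raw p under 0.05, 1 by DESeq2 and 0 by limma-voom. The 5 lower in the joint effect, named after their values were seen, were Mertk, a receptor for dying cells, Arl4c, Npc1, which moves cholesterol out of lysosomes, Soat1, which esterifies cholesterol, and Scd2, a fatty acid desaturase (log2 −2.54, −1.40, −1.22, −1.14 and −0.83).

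Of 29 fatty acid and triglyceride genes, 6 were higher and 13 lower (median log2 −0.17), where 26.7% of all genes tested were higher and 21.5% lower. LPS alone gave 8 and 11, and platelets alone 4 and 4. Library size alone gave 5 higher and 20 lower, and upper-quartile factors 5 and 16. Dgat2, which completes triglyceride synthesis, rose (log2 4.34), while Pparg, a lipid-sensing nuclear receptor, and Plin2, a lipid droplet coat protein, fell (log2 −3.12 and −1.31). Lpl, which frees fatty acids from lipoproteins (chosen after its values were seen), had 895.7, 858.2 and 881.2 CPM in PLT_LPS libraries, 2438, 2370.3 and 2384 CPM in LPS libraries, 624.5, 663.2 and 694.3 CPM in PLT libraries and 1786, 1834 and 1907 CPM in NC libraries. Both groups with platelets lay below both groups without (joint log2 −1.07, SE 0.07, adjusted p = 9.82e-10).

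Of 32 glycolysis and hypoxia-response genes, 24 were higher and 2 lower with both exposures (median log2 0.70), 19 and 2 with LPS alone, and 17 and 0 with platelets alone (2 lower at a raw p under 0.05, 0 by DESeq2 and by limma-voom). Upper-quartile factors gave 24 and 4 with both and 16 and 7 with LPS alone, and library size alone 19 and 6, and 13 and 12. Without PLT replicate 1, LPS alone had 4 lower. Vegfa, the vascular growth factor, had 47.95, 41.8 and 44.6 CPM in PLT_LPS libraries, 16.3, 17.9 and 14.7 CPM in LPS libraries, 24.2, 27.5 and 26.6 CPM in PLT libraries and 11.2, 8.63 and 10.5 CPM in NC libraries. The 4 groups did not overlap, with PLT_LPS highest. The joint rise was 4.43-fold (log2 2.15, SE 0.12, adjusted p = 3.88e-10), beside log2 0.69 for LPS alone and 1.37 for platelets alone. Pfkfb3, which speeds glycolysis, Bnip3, a mitophagy receptor, and Pfkl, a phosphofructokinase, had joint log2 changes of 3.43, 2.26 and 1.59. PLT_LPS against LPS called 14 members higher and 1 lower, with 9 higher without PLT_LPS replicate 1 or PLT_LPS replicate 2.

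The direction of the calls among mitochondrial energy genes depends on the scaling. For comparison, 26.7% of all genes tested were higher and 21.5% lower. Of 23 citric acid cycle genes, 2 were higher and 5 lower (median log2 0.06), the lower count near that share. Library size alone gave 1 higher and 18 lower. Idh1, a cytosolic isocitrate dehydrogenase, fell (log2 −0.73), and Dld, a subunit of the pyruvate dehydrogenase complex, rose (log2 0.69). Of 39 nuclear-encoded respiratory chain genes, 8 were higher and 0 lower (median log2 0.21), but 0 higher and 11 lower with library size alone, 1 and 0 with upper-quartile factors, and 13 higher without PLT replicate 1. None was lower by DESeq2, by limma-voom or at a raw p under 0.05.

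Arginine, polyamine and alternative-activation genes had 11 of 22 higher and 7 lower (median log2 0.48), beside 7 and 9 for LPS alone and 6 higher for platelets alone, or 3 without PLT replicate 2, NC replicate 1 or NC replicate 2. Arg1, which breaks down arginine, had 141.7, 156.5 and 113.8 CPM in PLT_LPS libraries, 38.4, 35.9 and 29.2 CPM in LPS libraries, 243.6, 180.0 and 190.2 CPM in PLT libraries and 64.3, 57.3 and 65.8 CPM in NC libraries. The groups with platelets lay above those without, and within each pair the LPS-treated cells lay lower. The joint rise was 2.20-fold (log2 1.14, SE 0.14, adjusted p = 4.73e-06), against log2 −0.85 for LPS alone and 1.71 for platelets alone. Slc7a2, an arginine importer, and Ass1, which remakes arginine from citrulline, rose (log2 7.93 and 4.85).

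DNA replication and cell cycle genes fell less with both exposures than with LPS alone. The joint effect called 17 of 44 lower and 5 higher, with a median log2 change of −0.18, while LPS alone called 33 lower and 0 higher (0 also by DESeq2, by limma-voom and at a raw p under 0.05), with a median of −0.62. The difference was tested directly: PLT_LPS against LPS called 24 higher and 0 lower (0 also by DESeq2, by limma-voom and at a raw p under 0.05), with a median of 0.44. That 24 fell to 11 without LPS replicate 3, 12 without LPS replicate 1 and 13 without any one PLT_LPS library. The 5 higher in the joint effect, named after their values were seen, were the mitotic genes Nusap1, Ccnb1, Top2a, Ube2c and Ccnb2 (log2 0.52, 0.41, 0.37, 0.31 and 0.30). They were 3 without NC replicate 1 or NC replicate 2, 1 with upper-quartile factors, where 26 were lower, and 0 with library size alone, where 31 were lower. Cdt1, which licenses replication origins, had 18.4, 24.2 and 23.5 CPM in PLT_LPS libraries, 12.2, 12.3 and 10.2 CPM in LPS libraries, 85.1, 84.7 and 85.3 CPM in PLT libraries and 85.4, 84.7 and 92.3 CPM in NC libraries. Both LPS-treated groups lay far below the others, PLT_LPS above LPS without overlap. The joint fall was 3.98-fold (log2 −1.99, SE 0.11, adjusted p = 2.48e-10), and PLT_LPS against LPS gave log2 0.92 (SE 0.11, adjusted p = 0.000101). The cell cycle factor E2f2 and Cdc6, which loads the replicative helicase, fell (log2 −3.70 and −3.56).

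Macrophage maturation genes went both ways, with 11 of 30 higher and 8 lower (median log2 0.15, but 7 higher and 14 lower with library size alone). Of all genes tested, 26.7% were higher and 21.5% lower. The scavenger receptor Marco, the receptor tyrosine kinase Axl and the transglutaminase Tgm2 rose (log2 5.28, 2.76 and 2.62), within a range of log2 −3.03 to 8.47 over the list. Lysosomal genes had 7 of 30 higher and 8 lower, near those shares (5 and 14 with upper-quartile factors, 3 and 20 with library size alone). Among them were the cathepsins Ctsc (log2 1.30) and Ctsl (log2 −1.97). Targets of the antioxidant factor NRF2 and iron genes had 14 of 25 higher and 1 lower (median log2 0.45), beside 19 and 2 for LPS alone and 1 and 11 for platelets alone. The joint split was 13 and 5 with upper-quartile factors and 10 and 7 with library size alone, and 2 were lower without PLT replicate 1. For LPS alone 1 was lower without LPS replicate 1, LPS replicate 3, NC replicate 2 or NC replicate 3, and for platelets alone 7 were lower without NC replicate 1 or NC replicate 2. Slc7a11, the cystine importer, had 797.1, 760.6 and 873.6 CPM in PLT_LPS libraries, against 23.7, 24.7 and 25.2 CPM in NC libraries (log2 5.05, SE 0.16, adjusted p = 3.67e-13), beside log2 5.55 for LPS alone and −0.69 for platelets alone.

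Genes of the ATF4 and unfolded protein responses had 8 of 25 higher and 5 lower, near the shares of all genes tested (26.7% and 21.5%). They had 3 lower without NC replicate 2, 5 higher and 13 lower under upper-quartile factors, and 5 and 15 under library size alone. Herpud1, a factor of endoplasmic reticulum degradation, rose (log2 0.83). Among chemokine receptors and adhesion genes, 16 of 30 were higher and 10 lower (median log2 0.49): Ccrl2, Fpr1, a receptor of bacterial peptides, and Icam1, an adhesion ligand, rose (log2 7.72, 5.65 and 4.67), while Ccr2, the Ccl2 receptor, fell (log2 −2.29). Immediate early factors had 9 of 21 higher and 7 lower (7 and 10 with library size alone), with Junb at log2 1.92 and Jun at log2 −2.19. None of 44 cytosolic ribosomal protein genes was called in either direction, also by DESeq2 and limma-voom, with 1 higher at a raw p under 0.05, 3 higher without PLT replicate 1 and 16 lower with library size alone. Of 10 tested mitochondrially encoded transcripts, 2 were higher, the ribosomal RNAs mt-Rnr1 and mt-Rnr2. The number higher was 1 without NC replicate 1, 0 without NC replicate 2 and 0 with library size alone. None was lower, also by DESeq2, by limma-voom and at a raw p under 0.05, while library size alone called 3 lower. Another 5 listed transcripts had 0 counts in every group and were not tested.

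**Figure D3:**
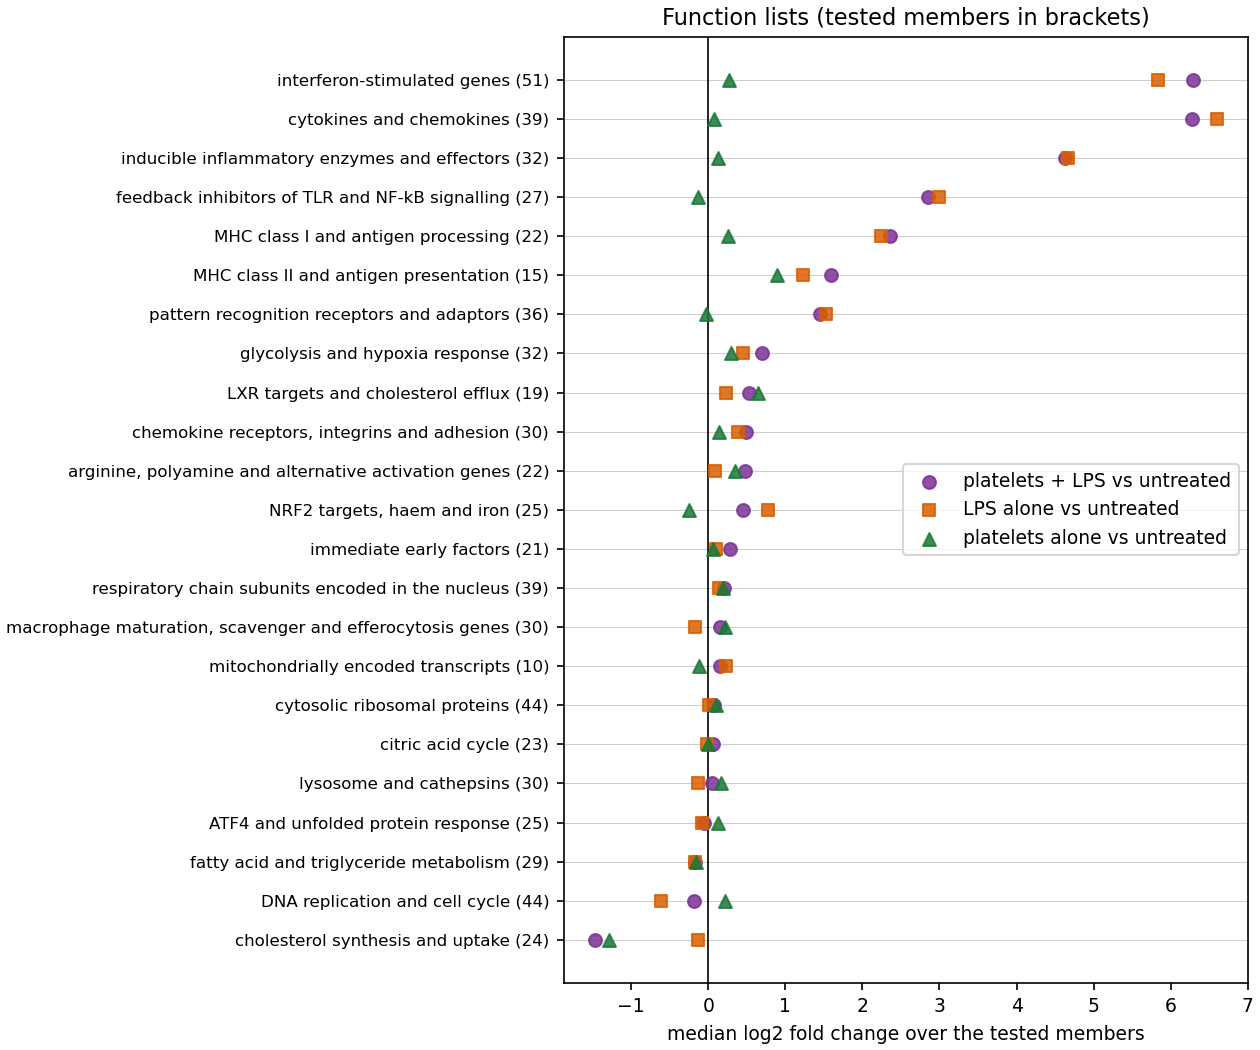
Median log2 change of each gene list for the joint effect, LPS alone and platelets alone (x axis, log2 units, 0 is no change), with the number of tested members in brackets. Circles are the joint effect, squares LPS alone and triangles platelets alone. Interferon-stimulated genes (51 members) and cytokines (39) lie at 6.29 and 6.28 for the joint effect, near their LPS-alone values, while cholesterol synthesis (24) lies at −1.47, near its platelets-alone value of −1.28.

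The departure from additivity compares the joint log2 change with the sum of the log2 changes of LPS alone and platelets alone. It was called for 208 genes (1.58%), 113 above the sum (0.859%) and 95 below it (0.722%). These counts rest on single libraries more than the others do. Above the sum they were 47 without NC replicate 2, 53 without LPS replicate 1, 60 to 63 without any one PLT_LPS library, 65 without LPS replicate 2 or PLT replicate 2, 60 without NC replicate 1 and 74 without NC replicate 3. Below it they were 40 without NC replicate 2, 45 without LPS replicate 1, 50 to 57 without any one PLT_LPS library, LPS replicate 2, PLT replicate 2 or NC replicate 1, 61 without NC replicate 3 and 208 without PLT replicate 1.

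The naming rule took the smallest p-values of a departure in each direction. Of the 7 genes so named above the sum, 6 were lower with LPS alone than in untreated cells, and Furin was higher (log2 0.29, or −0.09 with library size alone). The departure subtracts the change with each exposure alone, so choosing genes by it favours this pattern. Cx3cr1, the fractalkine receptor, had 85.2, 81.3 and 86.3 CPM in PLT_LPS libraries, 25.6, 23.2 and 29.2 CPM in LPS libraries, 144.1, 173.6 and 165.5 CPM in PLT libraries and 141.8, 139.3 and 122.3 CPM in NC libraries. PLT_LPS lay between LPS and the 2 groups without LPS. The joint change was 1.44 above the sum (SE 0.14, adjusted p = 9.82e-05). P2ry6, a receptor of extracellular nucleotides, and Fos, an immediate early factor, were 1.32 and 0.99 above it.

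Tgfbi, an extracellular matrix protein, had 858.5, 860.9 and 830.7 CPM in PLT_LPS libraries, 373.2, 385.4 and 389.2 CPM in LPS libraries, 468.6, 541.2 and 562.3 CPM in PLT libraries and 539.2, 525.9 and 488.1 CPM in NC libraries. PLT_LPS was the highest group and LPS the lowest, so that both exposures raised Tgfbi (log2 0.71) and LPS alone lowered it (log2 −0.44). The departure was 1.13 (SE 0.11, adjusted p = 9.82e-05). Furin, a protease that activates precursor proteins, had 300.0, 317 and 330.3 CPM in PLT_LPS libraries, 166.9, 182 and 173.8 CPM in LPS libraries, 103.2, 123.2 and 122.5 CPM in PLT libraries and 147.4, 142.4 and 138.8 CPM in NC libraries. Again PLT_LPS was highest, with no overlap, and the departure was 1.15 (SE 0.12, adjusted p = 0.000125). Ccl2 and the deubiquitinase Usp2 stood 1.40 and 1.87 above the sum, and for Usp2 the joint effect itself did not pass the test (log2 0.13, adjusted p = 0.472, and −0.08 and −0.26 with upper-quartile factors and library size alone).

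The 8 genes below the sum that were named for the smallest p-values of a departure had positive log2 changes with each exposure alone. Choosing genes by the departure favours that pattern too. Saa3, an acute-phase protein, had 2684, 2718 and 2288 CPM in PLT_LPS libraries, 2689, 2835 and 2089.7 CPM in LPS libraries, 3.70, 3.38 and 3.70 CPM in PLT libraries and 0.561, 0.351 and 0.442 CPM in NC libraries. PLT_LPS and LPS libraries overlapped, while all PLT libraries lay above all NC libraries. Both exposures gave log2 12.46, LPS alone 12.44 and platelets alone 2.98, so the departure from the sum was −2.97 (SE 0.23, adjusted p = 2.52e-05). Mmp14, a membrane-bound matrix protease, had log2 changes of 6.10 with both, 5.88 with LPS and 2.01 with platelets, a departure of −1.79 (SE 0.16, adjusted p = 5.61e-05). Ccl5, Marco and Tsc22d1, a transcription regulator, departed by −4.66, −1.86 and −1.91. For Ccl5 the NC libraries averaged 0.07014 ± 0.0928 CPM, under the 0.1041 CPM that 3 counts per NC library make, so this departure rests on the fit at very low counts.

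Gdf15, a stress-induced cytokine, had 18.9, 25.05 and 17.5 CPM in PLT_LPS libraries, 54.3, 60.9 and 45.8 CPM in LPS libraries, 23.1, 18.5 and 15.9 CPM in PLT libraries and 12.5, 10.2 and 13.2 CPM in NC libraries. LPS libraries were highest, PLT_LPS and PLT libraries overlapped, and the departure was −2.07 (SE 0.24, adjusted p = 0.000209). The adaptor Samsn1 and the membrane protein Tmem176b departed by −0.999 and −1.24.

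**Figure D4:**
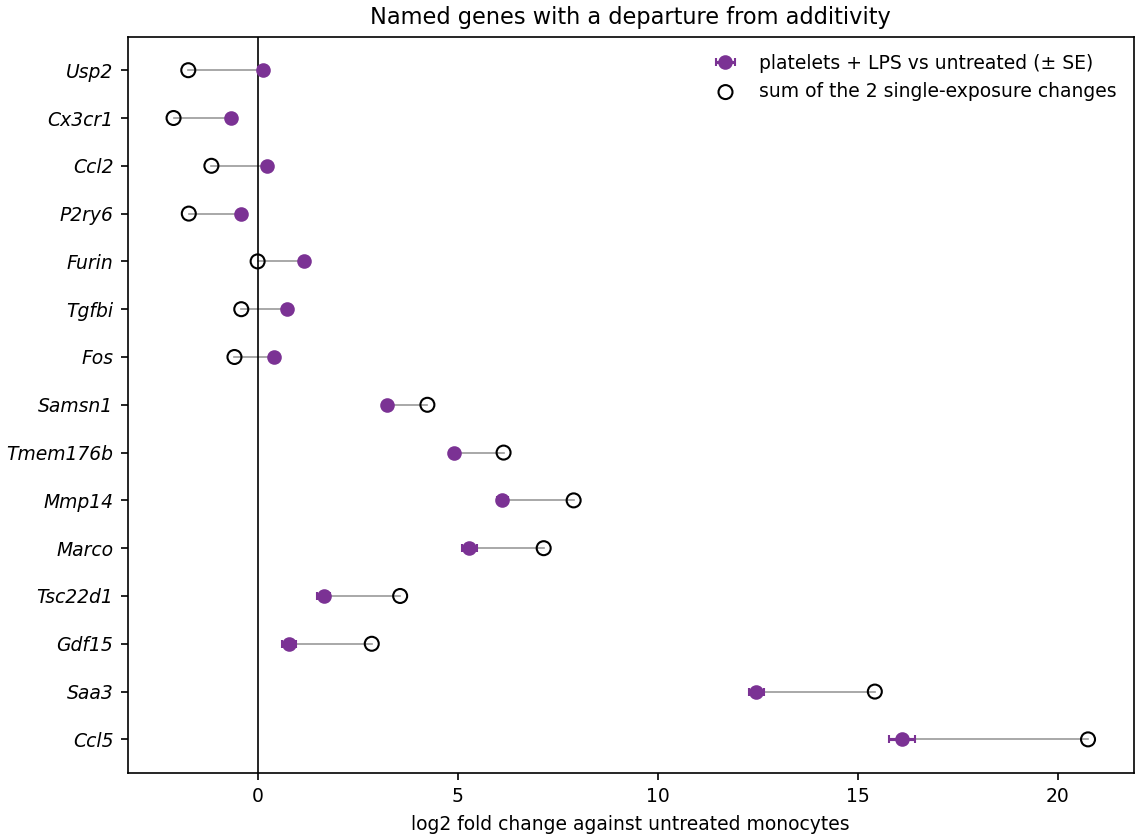
Joint log2 change (filled points, bars ± SE) and the sum of the log2 changes of LPS alone and platelets alone (open circles) for 15 genes named for the smallest p of a departure, 7 above and 8 below the sum. In the upper 7 genes the joint change lies right of the sum, as for Tgfbi at 0.71, and in the lower 8 it lies left of it, as for Saa3 at 12.46; all values share the NC libraries.

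The naming rule also took 6 genes that the single exposures moved in opposite directions, Il10, Cxcl5, Mmp13, Lpar1, St6gal1 and Hba-a1. For Mmp13, a collagenase, the log2 change was 3.99 with both, 4.36 with LPS and −1.62 with platelets. For Lpar1, a receptor of lysophosphatidic acid, it was 2.02, 2.94 and −1.55, and for St6gal1, which adds sialic acid to glycans, −2.56, −3.26 and 1.74. In Mmp13, Lpar1 and St6gal1 the joint change had the sign of LPS alone. For Hba-a1, an alpha globin gene, it was 4.65 with both, −2.39 with LPS and 5.54 with platelets. Its fall with LPS alone rests on 3 counts in all LPS libraries together and was lost by limma-voom (adjusted p = 0.159) and without LPS replicate 1, LPS replicate 3, NC replicate 2 or NC replicate 3 (adjusted p = 0.126, 0.0577, 0.0678 and 0.0512). Reads of Hba-a1 and its near-identical copy Hba-a2 may have been split by the counting, so its value is uncertain.

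The largest rises of PLT_LPS over LPS included platelet transcripts. Gng11, a G protein subunit used as a platelet marker, had 71.6, 64.1 and 58.15 CPM in PLT_LPS libraries, 2.43, 2.07 and 1.53 CPM in LPS libraries, 147.7, 77.1 and 73.6 CPM in PLT libraries and 1.72, 1.65 and 2.07 CPM in NC libraries. Both groups with platelets lay above both without, PLT libraries highest. The joint rise was 35.5-fold (log2 5.15, SE 0.27, adjusted p = 1.54e-10). Ctla2a, also on the platelet list, rose 48.7-fold, and the platelet receptor Clec1b and P2ry12, the platelet ADP receptor, rose as well (log2 7.92 and 3.07). Of the platelet and megakaryocyte list, 19 of 25 members were tested, 10 higher and 2 lower with both (median log2 2.20, or 1.60 with members at 0 set to their bounds), 3 and 2 with LPS alone (1 lower without LPS replicate 2) and 11 and 1 with platelets alone. The summed level of the list was 3952 to 4201 CPM in PLT_LPS libraries and 3913 to 4583 CPM in NC libraries, with Gp1bb at 0 in PLT_LPS libraries and Gp1bb, Gp5, Gp6, Selp and Cavin2 among those at 0 in NC libraries. That sum is mostly Pf4, a platelet chemokine also read in untreated cells, which averaged 3515 ± 162 CPM in PLT_LPS cells and 3844 ± 365 CPM in NC cells (log2 −0.13, SE 0.16, adjusted p = 0.551). How far platelet RNA carried with the cells contributes to the joint changes was not tested.

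Of the 14 monocyte and macrophage markers, 7 were higher and 3 lower with both exposures, and 5 were lower with upper-quartile factors or library size alone. Beside these and the following marker counts, 26.7% of all genes tested were higher and 21.5% lower. The 3 lower markers are near that share. Cybb, a subunit of the phagocyte oxidase, rose (log2 4.05), and the chemokine receptor Ccr2 fell (log2 −2.29). Of 14 tested classical monocyte markers, some shared with that list, 8 were higher and 2 lower. They ran from log2 −2.29 for Ccr2, which is on both lists, to 6.08 for haptoglobin Hp. Of 13 tested nonclassical ones, 7 were higher and 3 lower, the lower count near the share of all genes. The adhesion receptor Adgre4 had log2 4.76 and the transcription factor Pou2f2 log2 4.40. Cx3cr1, also on this list, was lower in every PLT_LPS library than in every NC library. Markers of other cells moved as well. Erythroid markers summed to 7.12 to 9.35 CPM in PLT_LPS libraries, 0.0362 to 0.8937 CPM in LPS libraries, 11.9 to 24.8 CPM in PLT libraries and 1.26 to 2.07 CPM in NC libraries, with 1 of 4 tested members, Hba-a1, higher with both. Basophil and mast cell markers summed to 109.4 to 119.3 CPM in PLT_LPS and 49.7 to 51.7 CPM in NC libraries. Their sum was 124.6 to 127.8 CPM in LPS and 46.05 to 48.62 CPM in PLT libraries. With both exposures 5 of 8 were higher and 1 lower, among them Hdc, the histamine-forming enzyme, at log2 8.41. Dendritic cell markers summed to 711.2 to 767.2 CPM in PLT_LPS and 449 to 467.3 CPM in NC libraries. Their sum was 498.3 to 567.7 CPM in LPS and 517.4 to 603.0 CPM in PLT libraries. With both exposures 5 of 13 were higher and 5 lower, 3 lower without PLT_LPS replicate 1, PLT_LPS replicate 2 or NC replicate 3. Neutrophil markers summed to 274.2 to 324.9 CPM in PLT_LPS and 383.6 to 413.7 CPM in NC libraries. Their sum was 354.0 to 427.9 CPM in LPS and 225.0 to 261.3 CPM in PLT libraries. With both exposures 5 of 11 were higher and 1 lower, 8 higher without PLT_LPS replicate 3 and 2 lower without PLT_LPS replicate 2. Stromal markers summed to 31.5 to 36.7 CPM in PLT_LPS and 1.30 to 2.07 CPM in NC libraries, with 3 of 4 higher. Most of that sum was Pdgfrb, a growth factor receptor, which averaged 24.1 ± 1.92 CPM in PLT_LPS, 32.9 ± 3.22 CPM in LPS, 0.01042 ± 0.0181 CPM in PLT and 0.0815 ± 0.0813 CPM in NC libraries. B cell markers summed to 16.5 to 23.5 CPM in PLT_LPS and 20.3 to 23.2 CPM in NC libraries, and T and NK cell markers to 1.02 to 1.53 CPM and 0.8768 to 1.61 CPM; none of their 3 tested members was called, with 1 B cell marker lower by DESeq2 and at a raw p under 0.05, 0 by limma-voom, and 1 lower without PLT_LPS replicate 1. The part of other cells in the joint changes was not tested.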

How the data were processed

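Nextera XT libraries were made from RNA extracted with RNeasy Plus Micro and amplified with SMARTer Ultra Low Input v4, per the labels' protocols. For each of 53819 genes and 12 libraries, the authors deposited raw whole-number counts. Salmon 1.5.2, featureCounts of Subread 2.0.1, STAR 2.7.9a and fastp 0.23.1 are named, without their roles, per the submitters' processing notes. The sources used here do not give the genome build, annotation or strand setting behind the counts, so reads of overlapping or near-identical genes cannot be told apart. Promoter sequences come from RefSeq on GRCm38.p6 and show annotated genes only.

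Of 26048 genes with a count, 13151 passed the filterByExpr function and were tested with edgeR 4.0.16 in R 4.3.3 (quasi-likelihood F test, two-sided, TMM scaling, 1 fit of the 4 group means to all 12 libraries, 8 residual degrees of freedom, Benjamini-Hochberg adjustment over all genes tested, threshold 0.05). Levels are CPM on the TMM-scaled library size, as mean ± SD with n = 3 per group, and log2 changes with their standard error (SE) come from the fit. A fold against a group with 0 counts is a lower bound with 3 counts in each of its libraries. Intervals and floors cover counting error only, since PCR reads without molecular identifiers are not independent molecules. The joint comparison, each exposure alone, PLT_LPS against LPS, PLT_LPS against PLT and the departure from additivity were tested.

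The comparison and the 34 gene lists (839 members, 836 found, 772 tested) were chosen with earlier results of these data known, and list counts are descriptions. Genes are named by a rule. It takes the 10 largest joint rises and 10 largest falls with an adjusted p under 0.05, at least 10 CPM in the higher group and no overlap of libraries, without predicted genes and pseudogenes. It adds 20 chosen genes, the 8 smallest p per direction for the departure from additivity, the 8 largest rises and falls of PLT_LPS against LPS, up to 3 members per function list and 2 per marker list by joint p, and 6 genes moved in opposite directions by the single exposures. A few genes that the rule took are not reported here. Genes outside the rule are marked as named or chosen after seeing their values.

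Alternatives were RLE or upper-quartile factors, library size alone, no filter, a stricter filter, limma-voom (limma 3.58.1), DESeq2 1.42.0 (Wald test), a replicate block, at least 2-fold changes, the 2 compared groups only, and each library left out. The code was tested on simulated counts.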

Additional observations from a re-analysis of the deposited data

Results flagged for a closer look

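The platelet effect differed with and without LPS, by a test of the difference itself, for 208 of 13151 genes. Among the genes named by the rule, 35 had such a difference, given here as the joint log2 change minus the sum of the single-exposure changes.

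Above the sum were Usp2 (1.87), Il10 (1.77), the receptor Cx3cr1 (1.44), the chemokine Ccl2 (1.40), P2ry6 (1.32), the collagenase Mmp13 (1.25), Furin (1.15), Tgfbi (1.13), the inhibitory receptor Cd300lf (1.01), Fos (0.99), Cdt1 (0.96) and the interleukin 6 receptor Il6ra (0.68).

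Below the sum were Ccl5 (−4.66), the platelet receptor Clec1b (−4.44), Saa3 (−2.97), Gdf15 (−2.07), Ifit1 (−2.06), Tsc22d1 (−1.91), the histamine-forming enzyme Hdc (−1.87), Marco (−1.86), Mmp14 (−1.79), Tmem176b (−1.24), the gelatinase Mmp9 (−1.23), Samsn1 (−0.999), the serine synthesis enzyme Phgdh (−0.99), haptoglobin Hp (−0.89), Ccrl2 (−0.85), Tgm2 (−0.81), the sterol enzymes Msmo1 (−0.75) and Sc5d (−0.67), H2-Ab1 (−0.74), Icam1 (−0.62), Nfkb2 (−0.59), Bnip3 (−0.57) and Herpud1 (−0.56). The calls of Cd300lf, Hdc, Mmp9, Phgdh, Hp, Ccrl2, Msmo1, Sc5d, H2-Ab1, Icam1, Nfkb2, Bnip3 and Herpud1 were each lost with at least 1 library left out. Over all genes limma-voom called 65 departures below the sum, against 95 in the main fit, and Ifit1 was not among the 65. Ccl5 and Clec1b averaged less in NC cells than 3 counts per library would make. No explanation of these departures was tested.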

How the results depend on the processing

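The joint comparison called 3513 genes higher and 2832 lower. Library size alone gave 2150 and 5926, with 2133 and 5975 for LPS alone and 2194 and 5749 for PLT_LPS against PLT, where upper-quartile factors gave 4623 lower. At least 2-fold changes numbered 1817 and 1210 (joint), 1794 and 1365 (LPS alone), 164 and 65 (platelets alone), 160 and 53 (PLT_LPS against LPS), 1793 and 1191 (PLT_LPS against PLT) and 34 and 41 (departure). DESeq2 called 773 higher for platelets alone, 583 lower for PLT_LPS against LPS, and 192 and 211 departures. With the 2 compared groups only, platelets alone gave 261 and 154, and PLT_LPS against LPS 620 lower. Without a filter, platelets alone gave 577 lower, and departures were 228 and 143.

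With single libraries left out, higher and lower counts ranged over 3147 to 3746 and 2430 to 3372 (joint), 3263 to 3941 and 2630 to 3485 (LPS alone), 261 to 590 and 149 to 502 (platelets alone), 372 to 863 and 185 to 777 (PLT_LPS against LPS), 3304 to 3636 and 2531 to 3284 (PLT_LPS against PLT), and 47 to 153 and 40 to 208 (departure).

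Of 11448 values of 547 results on named genes, 11000 kept their direction and side of the threshold, 416 fell below it, 17 passed it and 15 reversed. Joint values reversed for Ccl2 (−0.15), Usp2 (−0.26), Atp5a1 (−0.062), Rpl4 (−0.23), Rpl7 (−0.17) and mt-Nd1 (−0.24) with library size alone, for Usp2 (−0.081), Rpl4 (−0.046) and mt-Nd1 (−0.056) with upper-quartile factors, and for Ighm without PLT_LPS replicate 3 (0.087) or NC replicate 1 (0.021). Library size alone reversed Furin (−0.093) and Atp5a1 (−0.037) for LPS alone and Atp5a1 (−0.078) and Cycs (−0.002) for PLT_LPS against PLT. The cause was not tested.

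Same-numbered PLT_LPS and NC libraries did not deviate together (r = 0.03, −0.00 and −0.03). Over all groups, same-numbered pairs had r of −0.228 to 0.140 and other pairs −0.189 to 0.239. With 3 libraries per group these values cannot exclude a shared source of same-numbered libraries, which the labels do not give. A replicate block gave 62 departures above and 56 below the sum, against 113 and 95 without it, and moved no other count over all genes by over 1.5 times. With 3 libraries per group, genes near 3 counts are limited by depth.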
